A study of Caenorhabditis elegans with 2 samples.

Results

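Mitochondrial ribosomal protein genes of the nematode *Caenorhabditis elegans* were examined for recovery of the MADF-2 protein at their 5′ ends. The genes were chosen by name, as the protein-coding genes whose symbols begin with mrpl- (41 genes of the large ribosomal subunit) or mrps- (29 genes of the small subunit) in the Ensembl WBcel235 annotation, 70 of the 19973 nuclear protein-coding genes. The naming rule itself uses no measured value. The assay was ChIP-seq, in which DNA bound by a protein is precipitated and sequenced, on whole late embryos of both sexes, 3 hours after synchronisation by bleaching of eggs, as 2 biological replicates of 1 group. The strain, OP587, has the genotype unc-119(tm4063) III; wgIs587 and carries an integrated transgene for MADF-2 with a C-terminal GFP-FLAG tag, and the description states that an antibody to GFP was used. The labels' antibody entry reads madf-2, and whether it names the antibody or the tagged protein is not said. The labels do not name the promoter or copy number of the transgene. The samples used here hold no untagged, mutant or treated group, so a signal at a gene is not set against embryos without the tagged protein, and whole embryos give the sum over all cell types.

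Mitochondria make a few subunits of the respiratory chain on their own ribosomes. The RNA of these ribosomes is encoded in mitochondrial DNA, but the proteins are encoded in the nucleus, made on cytosolic ribosomes and imported. Some of the proteins have bacterial relatives, and others are found in mitochondria alone. In *C. elegans*, reduced expression of *mrps-5* and of related genes is known for extending lifespan and inducing the mitochondrial unfolded protein response. Many worm genes lie in operons, in which a shared transcript is cut into separate messages by trans-splicing, so a downstream gene of an operon need not have a promoter beside its own 5′ end.

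The deposited lists hold regions of the ce11 build with a summit and a signal value that the authors assigned, of unknown scale. There were 30000 regions for replicate 1, 27350 for replicate 2 and 30000 for the pooled replicates. The optimal list of 772 regions was what the authors' reproducibility filter (IDR) kept, and it comprised the 772 pooled regions of highest signal value, from 69.6 to 1036. The window of a gene began 1000 bp before its annotated 5′ end and ended 200 bp after it, and a summit in the windows of several genes counted for each. The replicate and pooled lists include background by design, so a summit in the pooled list alone is not evidence of binding. Ranks run from 1, the strongest region of a list. All values below are descriptions: genes are not replicates, and no test over the genes was made.

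The DNA at the summits is shown for the members of highest pooled signal value described below. Those of *mrpl-23* and *mrpl-15*, and that of *mrps-35*, which overlaps annotated untranslated sequence, are not shown. The weaker summit shared by *mrps-24* and *mrpl-1* was added because of the joined words in it. Each is the summit with 50 bp on either side in WBcel235, on the plus strand, 5′ to 3′, from the RefSeq genome. Capitals mark 3 words on either strand, which were chosen after the windows had been read. The first is CTTGCA, which the plus strand may show as its reverse complement TGCAAG instead. Another word is GAGCGC, with its reverse complement read as GCGCTC here. The last word is TTTGCGG, whose reverse complement is read as CCGCAAA in these windows. The window of *mrpl-12* has none of them.

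mrpl-39 (optimal), chrV:1821423-1821523: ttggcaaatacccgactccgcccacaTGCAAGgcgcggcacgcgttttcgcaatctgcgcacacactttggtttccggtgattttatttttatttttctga
mrps-7 (optimal), chrIV:14767860-14767960: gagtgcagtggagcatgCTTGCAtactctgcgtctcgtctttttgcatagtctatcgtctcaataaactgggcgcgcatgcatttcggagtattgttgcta
mrpl-45 (optimal), chrIII:1202319-1202419: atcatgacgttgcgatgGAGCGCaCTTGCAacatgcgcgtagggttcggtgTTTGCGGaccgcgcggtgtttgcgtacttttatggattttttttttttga
mrpl-12 (pooled), chrIII:10707199-10707299: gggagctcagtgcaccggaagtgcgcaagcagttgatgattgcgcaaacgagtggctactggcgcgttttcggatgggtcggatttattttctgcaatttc
mrpl-28 (pooled), chrII:156111-156211: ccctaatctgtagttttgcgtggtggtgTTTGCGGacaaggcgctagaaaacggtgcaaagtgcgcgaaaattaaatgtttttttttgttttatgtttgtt
mrpl-37 (pooled), chrII:13575652-13575752: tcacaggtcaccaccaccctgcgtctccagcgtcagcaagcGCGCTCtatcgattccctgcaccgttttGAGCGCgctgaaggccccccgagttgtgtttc
mrpl-49 (pooled), chrV:12728390-12728490: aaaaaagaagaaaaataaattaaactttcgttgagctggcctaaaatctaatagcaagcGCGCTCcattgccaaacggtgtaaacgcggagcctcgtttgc
mrps-16 (pooled), chrII:5474124-5474224: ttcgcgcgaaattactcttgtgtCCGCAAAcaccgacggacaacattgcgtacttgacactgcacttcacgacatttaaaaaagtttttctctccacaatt
mrps-24 and mrpl-1 (pooled), chrIV:7709872-7709972: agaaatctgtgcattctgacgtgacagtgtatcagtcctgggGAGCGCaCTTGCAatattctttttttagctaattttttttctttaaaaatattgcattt

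Optimal regions lay at few of these genes, and weaker regions at most of them. Of the 70 genes, 5 had an optimal summit in the window (7.14%, 95% Wilson interval 3.09 to 15.7%), against 2.81% of all protein-coding genes. Among genes with any pooled summit the shares were 10.4% (5 of 48, interval 4.53 to 22.2%) and 7.89%, and the interval of the members includes the share of all genes. A pooled summit was present at 48 of the 70 (68.6%, interval 57 to 78.2%), against 35.7% of all genes. For 23 of these 48 the strongest pooled summit lay in the window of another gene as well. One of the strongest 5000 pooled regions was present at 22 (31.4%, interval 21.8 to 43%), against 10.7% of all genes. The intervals cover counting error only and treat neighbouring genes as independent.

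The count of optimal summits changed with the window. With 500 bp upstream and 100 bp downstream it was 3 of 70 (against 2.15% of all genes), namely *mrpl-39*, *mrpl-45* and *mrps-7*. With 2000 bp upstream and 500 bp downstream it was 9 (against 3.81%), the added genes being *mrpl-48*, *mrps-6*, *mrps-21* and *mrps-28*. The same 9 were counted when any overlap of region and window sufficed (against 3.05%). It was 5 with the 5′ ends of all annotated transcripts (against 3.06%), 4 with a summit counted for the closest gene alone (against 2.01%) and 4 without summits near tRNA, small nucleolar or small nuclear RNA genes (against 2.51%). Among the optimal regions of signal value above the list's median of 95.2, the count was 3 (against 1.44%).

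The cytosolic ribosomal protein genes, named rpl- or rps-, stood higher at every level of the lists. Of these 78 genes, 25 had an optimal summit (32.1%, interval 22.7 to 43%) and 70 had a pooled summit (89.7%). The median signal value of the strongest pooled region per gene was 32.9 for the mitochondrial ribosomal genes, 53.1 for the cytosolic ones and 28.3 for all genes with a pooled summit. The median rank was 7002 for the mitochondrial ribosomal genes, 1525 for the cytosolic ones and 10879 for all genes.

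**Figure D1:**
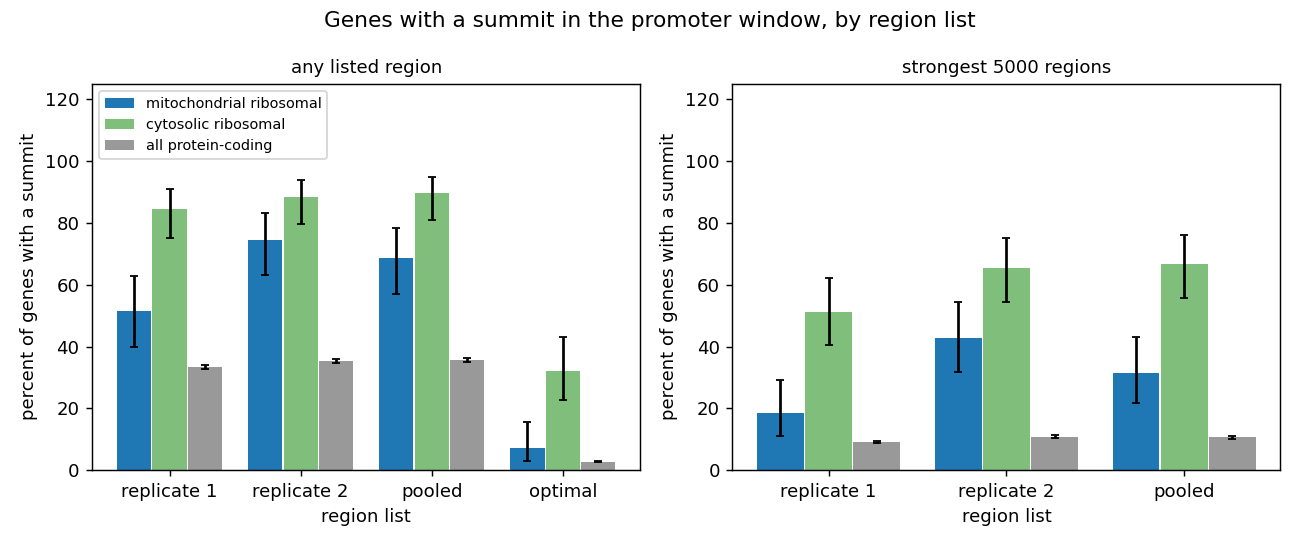
Percent of genes with a summit in the promoter window (vertical axis), for mitochondrial ribosomal, cytosolic ribosomal and all protein-coding genes, by region list; bars on the right count only the strongest 5000 regions of a list, and error bars are 95% Wilson intervals. The mitochondrial ribosomal genes lie between the other groups in every list, with 7.14% at the optimal list and 68.6% at the pooled list.

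The 5 genes with an optimal summit were *mrpl-23*, *mrpl-15*, *mrpl-39*, *mrps-7* and *mrpl-45*, on 4 chromosomes. *mrpl-23* encodes a protein whose bacterial relative lies at the tunnel exit of the large subunit. Its optimal region, on chromosome I from 6212665 to 6213060, had the highest signal value among the members, 132 (rank 193), and its summit lay 978 bp upstream of the gene. That summit lies inside *fars-1*, which encodes a subunit of a phenylalanyl-tRNA synthetase and ends 95 bp before *mrpl-23* on the same strand. The small nucleolar RNA gene *T08B2.13* and the noncoding RNA gene *T08B2.14* are within 300 bp of it. In replicate 1 the summit in the window had a signal value of 60.8 (rank 277). In replicate 2 no summit fell in the window, but one of signal value 68.6 (rank 171) lay 32 bp from the pooled summit, beyond the window's edge. The region is thus present in both replicates, and only its place relative to the window differs.

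*mrpl-15*, also of the large subunit and with a bacterial relative, had a summit 659 bp upstream on chromosome I (region 1435422 to 1435817, signal value 104, rank 316). It was the only protein-coding gene whose window held that summit. The summits of the replicates lay 659 bp upstream in replicate 1 (signal value 59.4, rank 298) and 656 bp upstream in replicate 2 (48.8, rank 379). These positions and ranks differed little between the replicates.

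*mrpl-39* encodes a large subunit protein that in mammals is specific to mitochondria. Its summit was 106 bp upstream on chromosome V (region 1821275 to 1821670, signal value 95.6, rank 384). The rank was 523 in replicate 1 and 354 in replicate 2, with summits 104 and 111 bp upstream. The 5′ end of the divergent gene *gly-7*, for an N-acetylgalactosaminyltransferase, is 256 bp away, and the summit lies between the 2 genes.

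*mrps-7*, the only small subunit gene with an optimal summit, encodes a relative of the bacterial protein S7 that binds the head of the small subunit RNA. Its summit was 180 bp upstream on chromosome IV (region 14767712 to 14768107, signal value 75.4, rank 643), in the window of the divergent gene *Y57G11C.3* as well. Replicate 1 gave a signal value of 50.8 (rank 421) and replicate 2 gave 22.2 (rank 3498). This was the member with an optimal summit whose replicates differed most in rank, and replicate 2 alone would not place it among its 772 strongest regions.

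*mrpl-45* is related to a human large subunit protein at the tunnel exit that faces the inner membrane. Its summit was 361 bp upstream on chromosome III (region 1202171 to 1202566, signal value 73, rank 697), shared with the divergent gene *Y119D3B.12*, whose 5′ end is nearer to it. The rank was 1013 in replicate 1 and 663 in replicate 2. When a summit counted for the closest gene alone, *mrpl-45* lost its optimal summit and 4 genes remained.

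The threshold of the optimal list fell inside a continuous range of signal values. Just above it were *mrpl-45* (73) and *mrps-7* (75.4), and just below it *mrpl-12* (67, rank 852) and *mrpl-28* (66.2, rank 878). *mrpl-12* is related to the stalk protein L7/L12 of bacteria, which recruits elongation factors, and its summit was 512 bp upstream, in the windows of *Y39A1A.21* and *Y39A1A.22* too. *mrpl-28* had its summit 152 bp upstream of the gene and in no other window. Its replicates gave close positions, 150 and 151 bp upstream, with signal values of 30.1 in replicate 1 and 30.7 in replicate 2.

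Next in order came *mrpl-37* (62.9), *mrpl-49* (60.4), *mrps-35* (58.2) and *mrps-16* (57.2). *mrpl-37*, *mrpl-49* and *mrps-35* are related to human proteins specific to the mitochondrial ribosome, and *mrps-16* has a bacterial relative. The summit of *mrpl-37* was 634 bp upstream and shared with *lin-38*, and that of *mrpl-49* was 191 bp upstream and shared with *rpl-28*, a cytosolic ribosomal protein gene on the other strand. The summit of *mrps-35* was 308 bp upstream and inside the neighbouring gene *sws-1*, and that of *mrps-16* was 199 bp upstream and in no other window. The place given for *mrps-35* is that of the pooled list. Its strongest summit was 107 bp upstream in replicate 1 and 238 bp upstream in replicate 2. *mrpl-49* ranked 651 in replicate 2 and 5163 in replicate 1, so it was among the 772 strongest of replicate 2 alone. The weakest members with a pooled summit were *mrps-31* (18.1, rank 28666) and *mrpl-11* (17.6, rank 29955), close to the last of the 30000 regions.

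**Figure D2:**
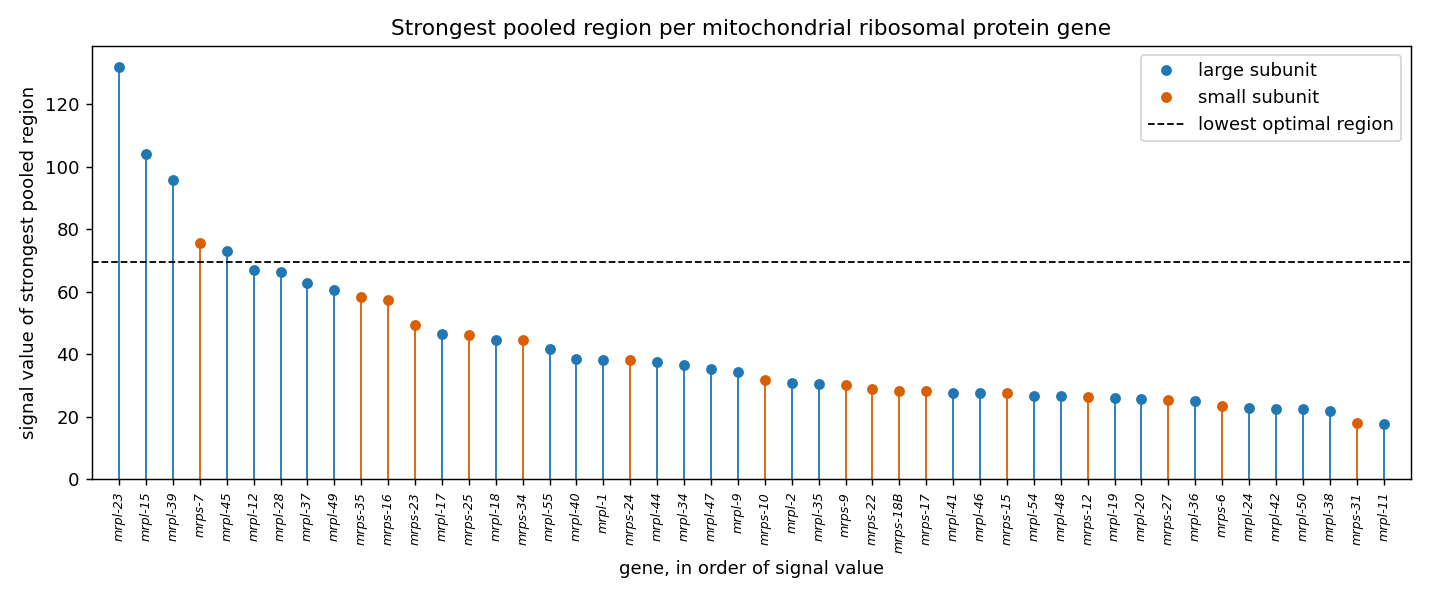
Signal value of the strongest pooled region in the promoter window (vertical axis) for each of the 48 mitochondrial ribosomal protein genes that had one, in order of value; colours give the subunit and the dashed line is the lowest optimal region, at 69.6. The values fall from 132 at *mrpl-23* to 17.6 at *mrpl-11*, and 5 genes lie above the line.

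The 3 highest signal values were all at large subunit genes, and below *mrps-7* (75.4), the highest small subunit gene, both kinds were present. Of the 41 large subunit genes 4 had an optimal summit (9.76%, interval 3.86 to 22.5%), and of the 29 small subunit genes 1 did (3.45%, interval 0.611 to 17.2%). A pooled summit was present at 31 of the large subunit genes (75.6%) and at 17 of the small subunit genes (58.6%). Median signal values were 35.4 for large subunit genes and 30.2 for small subunit genes. The intervals of these shares overlap.

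The replicates did not list these genes equally. A summit of replicate 1 lay in the window of 36 of the 70 genes (51.4%, interval 40 to 62.8%), against 33.4% of all genes. A summit of replicate 2 lay in the window of 52 (74.3%, interval 63 to 83.1%), against 35.4% of all genes. There were 31 genes with a summit in both (44.3%, against 19.9% of all genes), 21 in replicate 2 only, 5 in replicate 1 only and 13 in neither. Of all 19973 protein-coding genes, 10206 had a summit in neither. Over all protein-coding genes the shares were nearly even, with 15.5% in replicate 2 only and 13.5% in replicate 1 only, and at the members they were 30% and 7.14%. Replicate 2 has the shorter list.

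The same held among strong regions. One of the strongest 5000 regions of replicate 1 was present at 13 members (18.6%, against 9.07% of all genes), and one of the strongest 5000 of replicate 2 at 30 members (42.9%, against 10.8% of all genes). The median rank of the members' strongest region was 11501 in replicate 1, near the 11563 of all genes with a summit there. In replicate 2 it was 3531, against 10249 for all genes. At the top of the lists the replicates were alike: 4 members had one of the 772 strongest regions in replicate 1 (against 2.49% of all genes), and 4 had one in replicate 2 (against 2.94% of all genes). Only *mrpl-15* and *mrpl-39* were in both of these groups. Whether depth, precipitation or the embryos moved with this was not tested, as the lists give no read depth.

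Some members show the unevenness plainly. *mrpl-44*, whose human relative has a fold like ribonuclease III, ranked 28609 in replicate 1 (signal value 11.5) and 1560 in replicate 2 (27.8). *mrpl-55* ranked 25708 in replicate 1 and 1135 in replicate 2. *mrps-34* ranked 20568 in replicate 1 and 1357 in replicate 2. In the other direction *mrps-7* and *mrpl-12* ranked higher in replicate 1.

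Where both replicates had a summit, 24 of the 31 members (77.4%) ranked higher in replicate 2, against 58.1% of the 62 cytosolic ribosomal genes and 57.2% of all 3980 genes with a summit in both. Replicate 2 has fewer regions, so an even split is not the baseline. The strongest summits of the replicates were a median of 97 bp apart, and 17 of the 31 (54.8%) were within 100 bp, against 77.4% of the cytosolic ribosomal genes and 48.7% of all genes. The Spearman rho of the signal values was 0.564 over the 31 genes and 0.51 over the 3980, and neighbouring genes share some of these regions. Among the strongest 5000 regions of each replicate the order turned round. There, 8 of 12 members (66.7%) had summits within 100 bp, against 78.4% of 1035 genes, with a median gap of 63.5 bp for members and 36 bp for all genes. The rho was 0.252 over these 12 members and 0.609 over the 1035 genes. The replicates were thus not shown to match better at the members than elsewhere.

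**Figure D3:**
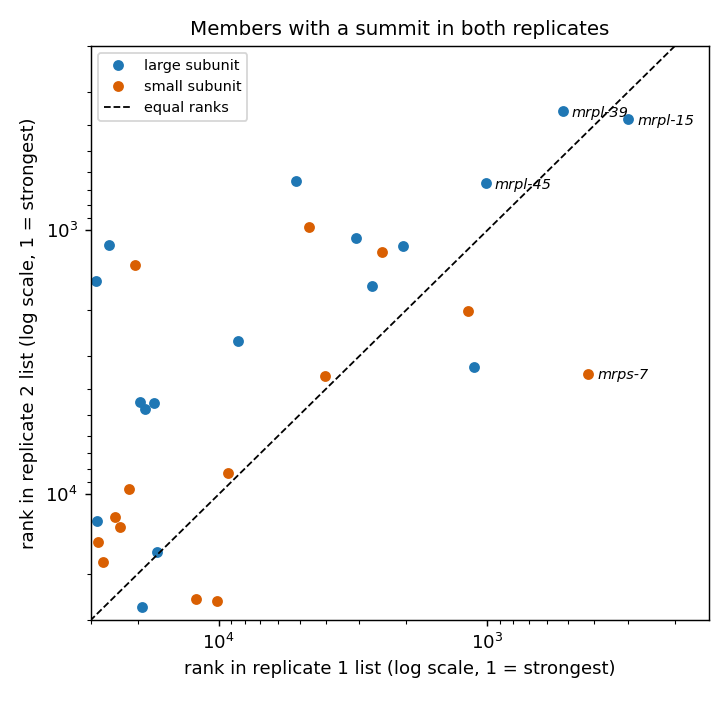
Rank of the strongest region in the promoter window in replicate 1 (horizontal, log scale) and in replicate 2 (vertical, log scale) for the 31 mitochondrial ribosomal protein genes with a summit in both; strong regions are at the top and right, colours give the subunit, and names mark optimal members. Of the points, 24 lie above the line of equal ranks, and *mrps-7* lies below it.

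By the median position, the pooled summits of the members lay less far upstream than those of cytosolic ribosomal genes and of all genes. The optimal ones did not. In the 48 members with a pooled summit the strongest one lay a median of 165 bp upstream (quartiles 85.5 and 334.75 bp). Downstream positions counted as negative in these medians. The median was 292.5 bp upstream for the cytosolic ribosomal genes and 283 bp for all genes with a pooled summit. The strongest pooled summit lay from 100 to 200 bp upstream in 16 of 48 members (33.3%). The share was 11.4% of cytosolic ribosomal genes (8 of 70) and 13.4% of all genes. In replicate 1 this interval held 25% of the members' summits, against 11.7% for all genes, and in replicate 2 it held 28.8%, against 13.5%. The 5 optimal summits of the members lay a median of 361 bp upstream, against 286 bp for the cytosolic ribosomal genes and 260 bp for all genes with an optimal summit. Among cytosolic ribosomal genes the interval from 200 to 300 bp of the pooled summits held the most, 22 of 70 (31.4%). The annotated 5′ end of a worm gene is often the site of trans-splicing rather than of initiation. Whether this differs between the gene groups was not tested.

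The 7 strongest of these 16 members were *mrpl-28* (152 bp), *mrps-7* (180 bp), *mrpl-49* (191 bp), *mrps-16* (199 bp), *mrps-23* (148 bp), *mrps-25* (162 bp) and *mrpl-39* (106 bp). These are among the 14 strongest members, and the other 9 ranked from 3320 (*mrpl-55*) to 11035 (*mrps-17*). In 8 members the strongest summit was downstream of the 5′ end, as for *mrpl-40* (15 bp inside) and *mrpl-47* (191 bp inside).

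**Figure D4:**
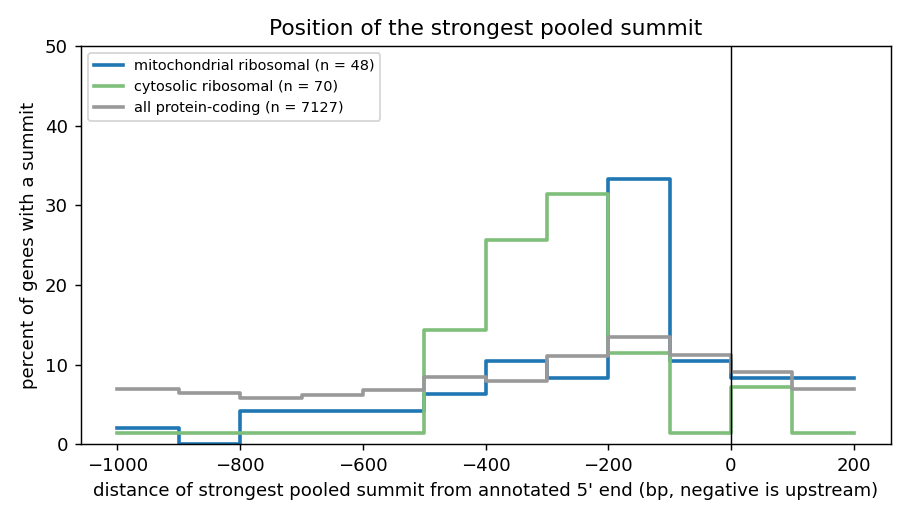
Percent of genes (vertical axis) by the distance of the strongest pooled summit from the annotated 5′ end, in 100 bp steps (horizontal, negative is upstream), for mitochondrial ribosomal genes, cytosolic ribosomal genes and all protein-coding genes with a pooled summit. The highest step of the mitochondrial ribosomal genes, 33.3%, is from 200 to 100 bp upstream, and that of the cytosolic ones, 31.4%, is from 300 to 200 bp upstream.

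Among the members, the presence of a pooled summit differed with the arrangement of neighbouring genes. A protein-coding gene on the same strand ended within 500 bp before the 5′ end of 27 of the 70 members (38.6%), a spacing common in operons, against 8 of 78 cytosolic ribosomal genes (10.3%) and 19% of all genes. A further 26 members (37.1%, against 17.5% of all genes) had a divergent gene starting within 1000 bp, and 17 had neither. The files and annotation used here mark no operons, so these classes rest on distance alone.

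A pooled summit was present at 12 of the 27 members with a close same-strand neighbour (44.4%, against 34.6% of all such genes). It was present at 21 of the 26 divergent members (80.8%, against 50.3%) and at 15 of the 17 others (88.2%, against 32%). An optimal summit was present at 1 member with a close neighbour (3.7%, against 2.03% of all such genes), at 3 divergent members (11.5%, against 7.41%) and at 1 of the others (5.88%, against 1.78%). The optimal summit with a close neighbour is that of *mrpl-23*, inside its neighbour *fars-1*. Of the 22 members without a pooled summit, 15 had a close same-strand neighbour.

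**Figure D5:**
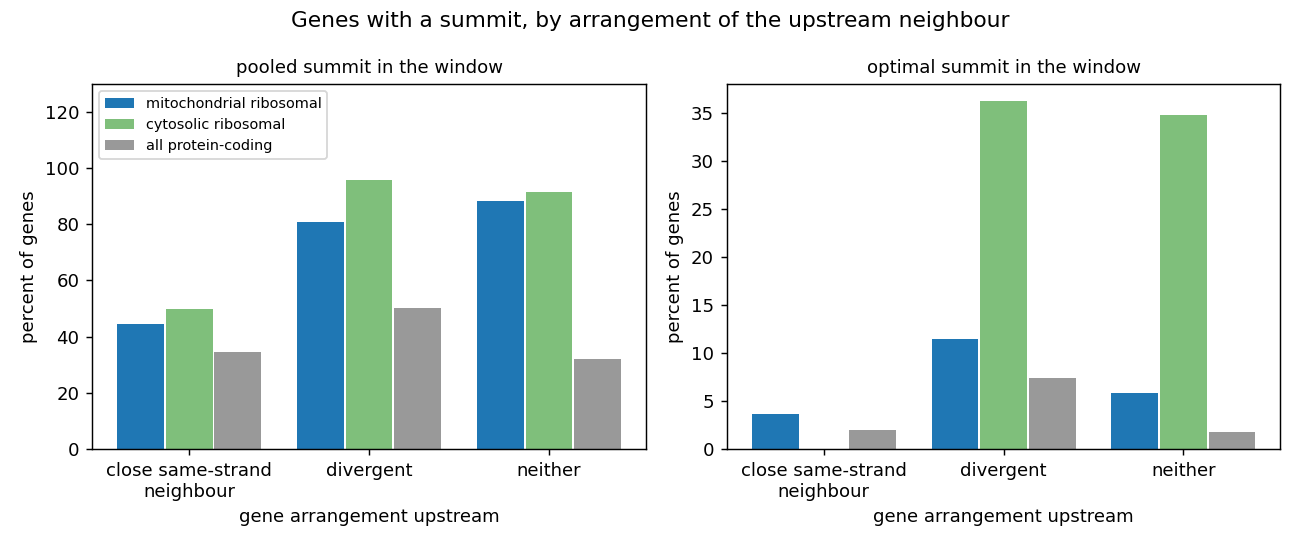
Percent of genes with a pooled summit (left) and with an optimal summit (right) in the promoter window, by what lies upstream, for mitochondrial ribosomal, cytosolic ribosomal and all protein-coding genes. Among mitochondrial ribosomal genes the pooled share is 44.4% with a close same-strand neighbour, 80.8% with a divergent gene and 88.2% with neither.

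For these 27 members, the first gene of the run of closely spaced genes was examined in addition, a comparison added after the values were seen. The first gene had an optimal summit for 5 of the 27 members, against 6.17% of all genes in such runs. These were *mrps-14* with *nrde-2* (signal value 167), a gene of nuclear RNA interference, *mrpl-54* with *clsp-1* (112), *mrps-21* with *F29B9.11* (103), *mrps-30* with *eif-3.E* (99.4), for a subunit of a translation initiation factor, and *mrpl-48* with *vps-37* (77). The summit at *nrde-2* was at -924 bp from that gene's 5′ end (negative is upstream). Those at the other first genes were at -367 to -188 bp. Of these 5, *mrps-14* and *mrps-21* had no summit in their own window in any list, *mrps-30* had one in replicate 2 only, and *mrpl-54* and *mrpl-48* had weak pooled summits (26.6 and 26.5). When the first gene stood for each member of a run, 9 of the 70 members had an optimal summit, against 3.6% of all genes, and 53 had a pooled summit, against 37.7% of all genes. Of the 15 members of runs without a pooled summit of their own, 11 had one at the first gene (73.3%), against 38.5% of all 2480 such genes.

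Other runs and pairs held more than 1 gene of mitochondrial translation. *mrps-2* and *mrpl-4* followed each other on chromosome V behind *natc-1*, and no list had a summit in the window of either. *mrps-22* followed *dap-3*, whose human relative is a small subunit protein of the mitochondrial ribosome and which the naming rule leaves out. *mrps-24* and *mrpl-1* were divergent on chromosome IV and shared a pooled summit with *emc-6*, 123 bp upstream of *mrps-24* and 221 bp upstream of *mrpl-1*. It had a signal value of 38.2 in the pooled list and 27.5 in replicate 2, and replicate 1 had none in the window.

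The 13 of 70 members with no summit in the window in any list were *mrpl-4*, *mrpl-13*, *mrpl-30*, *mrpl-51*, *mrps-2*, *mrps-5*, *mrps-11*, *mrps-14*, *mrps-18.C*, *mrps-18A*, *mrps-21*, *mrps-26* and *mrps-33*. Having no summit in either replicate was more common over all protein-coding genes, at 10206 of 19973. *mrps-5*, the gene known for its effect on lifespan, lies 103 bp behind *sel-1* on the same strand, and *sel-1* had a weak pooled summit (20.1). A further 6 members had a summit in replicate 2 alone. A missing summit does not show that the protein was absent, since each list leaves out weaker regions, and those of replicate 1 and of the pooled replicates both end at 30000.

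Optimal regions beyond the window were near 5 further members, within 2000 bp of the 5′ end. The share of all genes was not counted for this span. With the window to 2000 bp upstream and 500 bp downstream, 9 of 70 members had an optimal summit, against 3.81% of all genes. The strongest was at *mrps-28*, 1007 bp upstream (signal value 301, rank 22), inside the neighbouring gene *Y43F8C.7* and within 300 bp of the small nucleolar RNA gene *Y43F8C.22*. The one at *mrps-6*, 1160 bp upstream (70.6), was inside *rpn-8*, a proteasome subunit gene, and within 300 bp of the small nucleolar RNA gene *R12E2.17*. Those upstream of *mrps-21* (1051 bp, 103) and *mrpl-48* (1194 bp, 77) are at the first genes named above. At *mrpl-51* the summit was 1357 bp downstream of the 5′ end (91.7), past the end of the gene. Among the strongest pooled summits of the members only that of *mrpl-23* was within 300 bp of a tRNA, small nucleolar or small nuclear RNA gene.

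By chromosome, the members numbered 15 on I, 12 on II, 22 on III, 11 on IV, 10 on V and 0 on X. Chromosome III held 31.4% of the members and 13.2% of all protein-coding genes. X held 22.9% of the optimal regions, and none of these could count for a member. Optimal summits were at 2 members on I, at 1 each on III, IV and V, and at 0 of the 12 on II, where 8 had a pooled summit. Over all chromosomes 2.81% of all genes had an optimal summit and 35.7% a pooled one. Counts of optimal summits this small do not set the chromosomes apart.

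The windows of 50 bp on either side of the members' 47 strongest pooled summits, 1 of them shared by *mrps-24* and *mrpl-1*, had a median GC content of 42.6% (range 24.8 to 62.4%), against 43.6% at all pooled summits in promoter windows. At the 5 optimal summits of the members the median was 48.5%, against 50.5% at all optimal summits in promoter windows. CpG dinucleotides averaged 5.83 per window at the members, against 4.87 at all pooled promoter summits.

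Of 4 words searched on both strands, CACGTG was in 1 of the 47 windows (2.13%, against 2.28% of pooled promoter windows), TATAAA in 2 (4.26%, against 6.32%), GCGCGC in 4 (8.51%, against 3.76%) and CTGCGTC in 2 (4.26%, against 3.63%). Each count is of few windows. The words marked in the sequences shown above were found more often, but they were picked from these windows, so the counts are a description. CTTGCA was in 11 of 47 windows (23.4%), against 5.04% of all other pooled promoter windows and 13.7% of optimal promoter windows. GAGCGC was in 9 (19.1%), against 4.96% and 15.2%. TTTGCGG was in 6 (12.8%), against 1.75% and 4.89%. At least 1 of the 3 words was in 21 of the 47 (44.7%), in 13 of 67 windows of cytosolic ribosomal genes (19.4%), in 27.9% of optimal promoter windows and in 10.9% of the other pooled promoter windows.

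In the windows of *mrpl-45* and of *mrps-24* with *mrpl-1*, GAGCGC and CTTGCA were joined by a single A. This longer run was in 2 of the 47 windows and in 0 of the 67 of cytosolic ribosomal genes. It was in 13 of the other 7180 pooled promoter windows (0.181%) and in 3 of the 409 optimal promoter windows (0.733%). The run was noticed in the members' own windows, so these counts are a description. *mrpl-45* is an optimal member, and the *mrps-24* region is of moderate strength (rank 4315). A match is a run of letters and not a shown binding site.

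Genes for the rest of mitochondrial gene expression were set beside the members. The list held mitochondrial aminoacyl-tRNA synthetases, translation factors, the mitochondrial RNA and DNA polymerases, helicase and DNA-binding proteins, and *dap-3*. Of 20 listed genes 19 were found in the annotation. A pooled summit was present at 12 of the 19 (63.2%), against 35.7% of all genes. An optimal summit was present at 2 (10.5%, interval 2.94 to 31.4%), against 2.81% of all genes. These were *ears-2*, a mitochondrial glutamyl-tRNA synthetase gene (signal value 275, 38 bp upstream, shared with *uncp-18*), and *mtss-1*, for the mitochondrial single-stranded DNA-binding protein (110, 206 bp upstream, shared with *mig-22*). Below the optimal threshold were *iars-2* (55.3) and *pars-2* (53.6), also for synthetases, and *gfm-1* (48.8), for an elongation factor. The genes of the polymerases, *polg-1* and *rpom-1*, had no pooled summit in the window and a weak one in 1 replicate each.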

How the data were processed

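The material was 2 biological replicates of 1 group of MADF-2-GFP late embryos. Per the deposited file records, the authors called candidate regions for each replicate and for the pooled replicates from alignments with a control alignment, and filtered them for reproducibility. Read depth is unknown, and the sources used here name no aligner, caller or setting. Signal values are as deposited, with no further scaling. The deposited −log10 q-value reached a ceiling at 3 of the members' strongest pooled regions and was not used for ranking. Controls and ce10 lists were not analysed here.

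The deposited summit offsets gave 1-based positions in ce11, placed on Ensembl release 115 (WBcel235). The strongest summit in the window was taken per gene (pandas 2.3.3, scipy 1.17.1, biopython 1.88). Placement was tested on simulated data. Members, lists and rules were chosen with earlier results of these data known. Named genes were the members with an optimal summit, the 10 strongest, the weakest, those without a summit, and those at the threshold or in shared windows. Others were chosen after their values were seen.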

Additional observations from a re-analysis of the deposited data

How the results depend on the processing

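The count of 5 members with an optimal summit depended on the window and on what was counted. The narrow window ran from 500 bp before to 100 bp after the 5′ end, and the wide one from 2000 bp before to 500 bp after. The count was 3 with the narrow window (against 2.15% of all genes), 9 with the wide one (against 3.81%), 9 with any overlap of region and window (against 3.05%), 3 among optimal regions above the list's median signal value (against 1.44%) and 9 with the first gene of a run, chosen after seeing the data (against 3.6%). It was 4 when either replicate stood alone, each with its 772 strongest regions, 4 with the nearest 5′ end only (against 2.01%) and 4 without summits near small RNA genes (against 2.51%), which removed *mrpl-23*, and 5 with all transcript 5′ ends (against 3.06%). The percent of members minus the percent of all genes was 4.33 points. It ranged from 2.14 to 9.8 points over the alternatives, and was 2.53 among genes with a pooled summit. The alternatives recount many of the same genes, so their shared sign is not independent support. With either replicate alone, the members' interval of 2.24 to 13.8% includes the share of all genes. The count of members with a pooled summit, 48, became 37 with the narrow window, 54 with the wide one and 37 with the nearest 5′ end only. The shares of all genes were not counted for these 3 settings. The median distance of the strongest pooled summit was -165 bp and became -152 bp with the narrow window, -232 bp with the wide one, -136 bp with the nearest 5′ end and -180 bp with the first gene. The median GC content at the members' pooled summits was 36.3% with 100 bp on either side, against 41.3% at all pooled promoter summits. With 50 bp on either side it was 42.6%, against 43.6%. In windows of 51 bp in all it was 47.1%, against 45.1%, so the order changed with the width. No paired analysis was possible because there is 1 group. No read depth was given, so no limit of detection could be set.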
